A study of Mus musculus with 18 samples.

Results

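RNA of naive CD4 T cells was compared between mice that over-express the whole miR-23 cluster in T cells (cluster Tg) and mice that over-express a single member of it, miR-27 (miR-27 Tg). The comparison holds 6 of the 18 libraries of the series, 3 of each genotype. Of 23953 gene rows, 10622 reached 1 RPKM (reads scaled to transcript length and to the size of the library) in at least 3 of these 6 libraries and are described here. All mice were C57BL/6, and the cells had been sorted by flow cytometry as naive CD4+CD25- cells. Both genotypes carry extra miR-27, so by the labels the contrast sets the addition of miR-23 and miR-24 against miR-27 alone, although the miR-27 hairpin itself was not at equal levels (values below). The other genotypes of the series, used here only for reference levels and for the spread, were WT, miR-23 Tg, miR-24 Tg and DKO, which lacks both copies of the cluster in T cells. The sources used here do not name the promoter or Cre line behind the transgenes, the age of the mice, or whether each library came from its own animal. The p-values therefore reflect how these libraries scatter, which may in part be technical.

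MicroRNAs guide a silencing complex to mRNAs, mostly through pairing of their seed, bases 2 to 8, with the 3′ UTR, and the mRNAs bound in this way usually fall in level. The miR-23, miR-27 and miR-24 hairpins lie next to each other and are transcribed as a single precursor, and the cluster is known as a restraint on effector programmes of CD4 T cells. Naive CD4 T cells circulate through lymphoid organs, express CCR7, and hold effector genes at low levels.

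The mature microRNAs that the comparison turns on are shown because their seeds define the target sites described further on. The letters come from RefSeq annotation of GRCm38.p6, 5′ to 3′, with the seed in capitals.
miR-23a-3p: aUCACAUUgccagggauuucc
miR-27a-3p: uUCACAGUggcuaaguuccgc
miR-24-3p: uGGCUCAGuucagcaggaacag
All 3 lie on the plus strand of chromosome 8, miR-23a-3p at chr8:84208563-84208583, miR-27a-3p at chr8:84208727-84208747 and miR-24-3p at chr8:84208875-84208896. No 2 of them share a seed. Only miR-27 is over-expressed in both genotypes.

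The hairpin rows showed which members each genotype over-expressed. Mir23a was listed at 176364, 64695 and 32829 RPKM in cluster Tg replicates 1 to 3 and at 0, 156 and 0 in miR-27 Tg replicates 1 to 3. Mir24-2 was listed at 70491, 26689 and 16951 RPKM in cluster Tg and at 35.2, 26.8 and 0 in miR-27 Tg. Both were far higher in every cluster Tg library than in any miR-27 Tg library. The cluster Tg libraries also differed several fold among themselves, and Mir24-2 was called only over 5 and 16 libraries (adjusted p = 0.0129 and 0.00239), and Mir23a only over 16 (adjusted p = 0.0126, and 0.128 without miR-27 Tg replicate 1). The rows of the b cluster, Mir23b, Mir27b and Mir24-1, held 0.000378 RPKM or less in all 6 libraries. Mir27a stood at 172309, 67414 and 35501 RPKM in cluster Tg and at 216755, 234933 and 27980 in miR-27 Tg. The Mir27a groups overlapped through miR-27 Tg replicate 3 alone, and every cluster Tg value lay below those of miR-27 Tg replicates 1 and 2. The log2 difference was -0.60 with 6 libraries and -1.60 without replicate 3, and it did not pass the test in any fit (adjusted p = 0.85, 0.772 and, over 16 libraries, 0.156). Replicate 3 was the lowest of its genotype in both. Hairpin rows are short, so their RPKM cannot be compared in size with that of mRNAs.

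**Figure D1:**
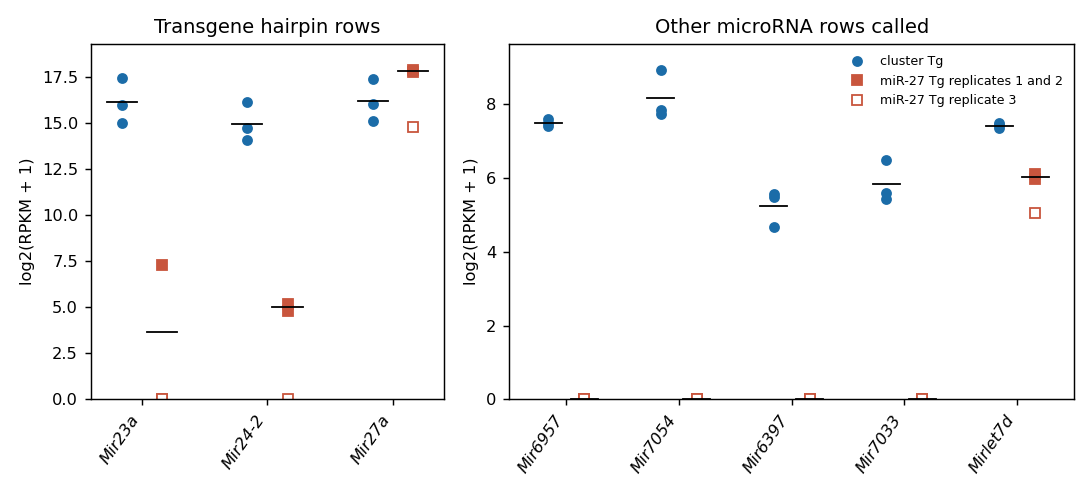
Values of microRNA rows on the log2(RPKM + 1) scale (vertical axis) in each library. Circles are the 3 cluster Tg libraries, filled squares miR-27 Tg replicates 1 and 2, open squares miR-27 Tg replicate 3, and bars the mean of the filled symbols. On the left, Mir23a and Mir24-2 are high only in cluster Tg and Mir27a is high in both genotypes. On the right, 4 rows sit at 0 in all miR-27 Tg libraries.

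Library miR-27 Tg replicate 3 stood apart. Its correlation with the other 5 libraries lay between 0.758 and 0.798, against 0.918 to 0.951 among those 5. It was also the shallowest of all 18, with a depth of 0.634 relative to WT replicate 1, where the cluster Tg libraries lay between 1.3 and 1.47 and the other 2 miR-27 Tg libraries at 0.981 and 1.2. Ribosomal protein genes averaged 1623 RPKM in it, against 268.6 to 414.5 in the other 5. Values below are therefore given in replicate order, so that the last miR-27 Tg value is always that of this library. Differences are those without it unless stated, and for called genes the difference with it follows in the same paragraph. Cluster Tg replicate 2 held both Xist (45.8 RPKM) and the Y-linked Ddx3y (20.1), while each of the other 5 libraries held only one of them above 1 RPKM. The sources used here do not say what this library was made from.

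Over the 6 libraries, limma called 5 gene rows at an adjusted p under 0.05, 0.0471% of the 10622 tested, with 4 higher (0.0377%) and 1 lower (0.00941%) in cluster Tg, and 879 had an unadjusted p under 0.05. Without miR-27 Tg replicate 3 it called 26 rows (0.245%), 15 higher (0.141%) and 11 lower (0.104%), with 2681 at an unadjusted p under 0.05. In a further fit the spread of each gene was estimated over 16 libraries, all of the series except miR-27 Tg replicate 3 and DKO replicate 3. There the same 3 cluster Tg and 2 miR-27 Tg libraries were contrasted, so the differences equal those without replicate 3, and 1276 rows (12%) were called, 590 higher (5.55%) and 686 lower (6.46%). Of these, 85 differed by a log2 of 1 or more. The 3 fits are named below by their number of libraries. The median standard error of a difference was 0.25, 0.11 and 0.12 on the log2 scale in the 6-, 5- and 16-library fits. The ranges of the 3 cluster Tg and the 3 miR-27 Tg values did not overlap for 2652 rows (25%), 1326 in each direction (12.5%), and with miR-27 Tg replicate 3 left out for 46.8%. Calls from the 16-library fit assume that these 5 libraries vary as the other genotypes do, and their number fell to 292 without miR-27 Tg replicate 2, to 407 without replicate 1 and to 689 without cluster Tg replicate 1.

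Of the 5 rows called over 6 libraries, 4 were microRNA hairpins outside the cluster. Mir6957 was at 180.3, 192 and 169.8 RPKM in cluster Tg, Mir7054 at 228, 484 and 214, Mir6397 at 46.2, 24.6 and 43.5 and Mir7033 at 89.7, 47.7 and 42.2, and all 4 were listed at 0 in the 3 miR-27 Tg libraries. These values are worth 1 or 2 reads. Multiplied by relative depth they fell on steps of the value of a single read, within 2.22% of a read, as 1, 1 and 1 read for Mir6957, 1, 2 and 1 for Mir7054, 2, 1 and 2 for Mir6397 and 2, 1 and 1 for Mir7033. The same rows held 1 to 3 reads in some WT, miR-24 Tg, miR-23 Tg or DKO libraries, for example 2 for Mir6957 in WT replicate 1. At such counts a difference from 0 reads is not resolvable by depth, and no fold change is given. The 4 rows also passed the filter only through cluster Tg, which fixed their direction beforehand. With the microRNA and snoRNA rows left out of the fit, 0 of 10355 rows were called by limma over 6 libraries (852 at an unadjusted p under 0.05) and 376 over 5 libraries, 165 higher and 211 lower. The let-7d hairpin row Mirlet7d, called with 5 libraries only, stood at 162, 172 and 179.9 RPKM against 62.1, 67.9 and 32, or 11, 11 and 13 reads against 3, 4 and 1, with WT libraries at 66.8 to 81.2.

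The fifth row was Myo6, which encodes myosin VI, a motor that moves toward the minus end of actin filaments. It was at 0.832, 1.03 and 1.14 RPKM in cluster Tg and at 6.51, 7.89 and 5.81 in miR-27 Tg. Every cluster Tg library lay far below every miR-27 Tg library, with no overlap. The log2 difference was -1.95 (SE 0.16, adjusted p = 0.0396) over 6 libraries and -2.03 (SE 0.13, adjusted p = 0.0129) over 5. Over 6 libraries the call of Myo6 was lost when any 1 library other than miR-27 Tg replicate 3 was left out (adjusted p between 0.0626 and 0.458), with a replicate block (0.358), without a filter (0.145) and with the microRNA and snoRNA rows left out (0.141). Over 16 libraries it was called in all 7 refits, which left out 1 of the 5 libraries or rescaled the values. In the genotypes outside the contrast, Myo6 was at 3.5 to 10.3 RPKM in WT, 0.947 to 1.23 in miR-23 Tg and 1.27 to 2.62 in miR-24 Tg. Its level in cluster Tg thus overlapped that in miR-23 Tg, and its level in miR-27 Tg lay within the range of WT. The Myo6 3′ UTR holds a match to the miR-23 seed, printed with the others below.

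Among mRNAs called higher without miR-27 Tg replicate 3 and without overlap of all 6 libraries, the largest difference was that of Cst7, which encodes cystatin F, an inhibitor of lysosomal proteases in cytotoxic cells. It was at 26.1, 18.4 and 22.1 RPKM in cluster Tg and 4.76, 3.34 and 8.26 in miR-27 Tg. The log2 difference was 2.199 (SE 0.19, adjusted p = 0.0338, 5 libraries) and 1.90 over 6. Prf1, which encodes the pore-forming protein perforin, stood at 10.5, 10.6 and 10.8 RPKM in cluster Tg and at 3.93, 4.04 and 1.65 in miR-27 Tg. The 3 cluster Tg values of Prf1 were nearly equal and all above the miR-27 Tg values (log2 difference 1.22, adjusted p = 0.0128 over 5 libraries, and 1.53, adjusted p = 0.33 over 6). WT libraries held 13.2 to 16.7 RPKM of Prf1 and miR-24 Tg libraries 20.7 to 31.8, so both genotypes of the contrast lay below WT, miR-27 Tg the more so.

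The other mRNAs of this kind were Cldn10, Lypd6b, Ndrg1 and Cdc14b. Cldn10, a claudin of tight junctions, was at 9.96, 10.2 and 8.01 RPKM against 2.72, 1.79 and 4.12, a log2 difference of 1.68 (adjusted p = 0.0485, 5 libraries). Lypd6b, of the Ly6 domain family, was at 19.4, 16.6 and 19.6 against 6.56, 5.24 and 10.02 (log2 1.503, adjusted p = 0.0304). Ndrg1, a gene induced by stress and hypoxia in many cells, was at 32.5, 32.9 and 29.2 against 13.8, 12.6 and 14.7 (log2 1.20, adjusted p = 0.0194). Of the 4, Ndrg1 had the smallest spread over the miR-27 Tg libraries relative to its mean. Its 6-library difference of 1.15 was close to that without replicate 3. Cdc14b, a cell cycle phosphatase, was at 5.05, 4.35 and 4.83 against 1.77, 1.84 and 0.541 (log2 1.03, adjusted p = 0.0434). With replicate 3 Cldn10, Lypd6b and Cdc14b differed by 1.46, 1.28 and 1.32. None of the 4 was called over all 6 libraries, where adjusted p lay between 0.217 and 0.37, and all 4 were called over 16.

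Below miR-27 Tg in every library, beside Myo6, the called genes over 5 libraries were Ecm1, Pcsk1, Ager, Cyp4f16, Mov10, 8430419L09Rik, Pbx2 and Tsta3. Ecm1, a secreted matrix protein that T helper cells also express, was at 18.3, 17.2 and 16.8 RPKM in cluster Tg and 52.3, 58.5 and 98 in miR-27 Tg, a log2 difference of -1.61 (SE 0.08, adjusted p = 0.0117). Replicate 3 of miR-27 Tg was the highest library for Ecm1, and the difference with it was -1.88 (adjusted p = 0.289). WT libraries held 31.9 to 43.9 RPKM, miR-23 Tg libraries 31.9 to 39.2 and miR-24 Tg libraries 11.4 to 15.4, so the level in cluster Tg was nearest to that in miR-24 Tg. Pcsk1, a prohormone convertase, was at 0.813, 0.748 and 0.935 RPKM against 3.86, 3.57 and 1.26 (log2 -1.36, adjusted p = 0.0271), with WT at 0.543 to 0.931. Every miR-27 Tg library lay above the WT range of Pcsk1, and replicate 3 was closer to cluster Tg than the other 2 (log2 difference -1.01 with it). No cluster Tg library reached 1 RPKM of Pcsk1. It thus passed the filter only through miR-27 Tg, which fixed its direction beforehand.

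Ager, the receptor for advanced glycation end products, was at 8.96, 10.4 and 9.01 RPKM against 23.1, 24.8 and 54.9 (log2 -1.26, adjusted p = 0.0216). Pbx2, a homeodomain transcription factor, was at 43.7, 46.5 and 46.9 against 78.3, 80.5 and 80.3 (log2 -0.78, adjusted p = 0.0338). The 2 genes lie next to each other in the mouse MHC region, and both were lowest in miR-24 Tg, at 5.97 to 7.86 and 34.5 to 35.7 RPKM. Mov10, an RNA helicase that associates with Argonaute proteins, was at 17.3, 16.2 and 16.5 against 30.03, 31.5 and 24.6 (log2 -0.85, adjusted p = 0.0271). Cyp4f16, a cytochrome P450, was at 6.67, 5.82 and 5.61 against 12.8, 13 and 18.8 (log2 -0.99). Tsta3, an enzyme of GDP-fucose synthesis, was at 21.5, 22 and 23.6 against 40.6, 37.8 and 116, and its miR-27 Tg replicate 3 lay far above the rest (log2 -0.78 without it, -1.30 with it). 8430419L09Rik fell between these in size, at 7.01, 6.44 and 6.86 against 12.4, 13.1 and 15.9 (log2 -0.83). For Cyp4f16, Tsta3 and 8430419L09Rik adjusted p was 0.0434 over 5 libraries, and none of the 3 was called over 6. With replicate 3 Ager, Pbx2, Mov10, Cyp4f16 and 8430419L09Rik differed by -1.64, -0.79, -0.74, -1.16 and -0.93.

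**Figure D2:**
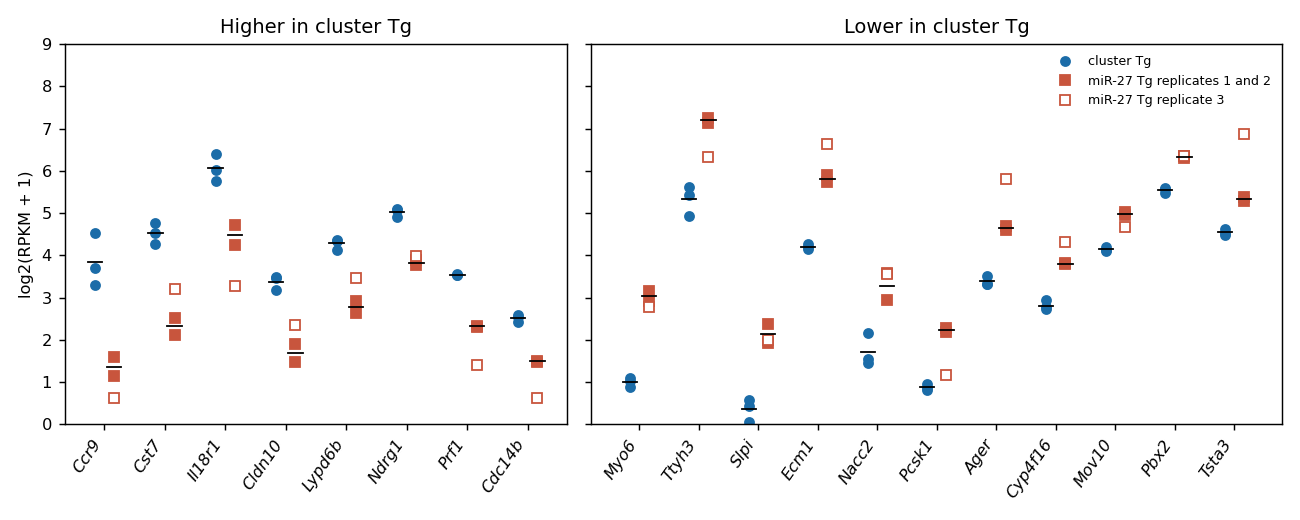
Values of 19 mRNAs on the log2(RPKM + 1) scale (vertical axis) in each library. Circles are cluster Tg, filled squares miR-27 Tg replicates 1 and 2, open squares miR-27 Tg replicate 3, and bars the mean of the filled symbols. For every gene shown the circles lie on one side of all squares, while the open square is often the farthest from the others of its genotype.

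In the 16-library fit, genes were named after their values were seen, as those with the largest differences and no overlap. Ccr9, the receptor for the gut chemokine CCL25, was at 22, 8.87 and 12 RPKM in cluster Tg and 1.99, 1.2 and 0.54 in miR-27 Tg (log2 2.48, SE 0.34, adjusted p = 0.00162). Il18r1, a chain of the IL-18 receptor, was at 83.2, 53.5 and 64.3 against 25.5, 17.9 and 8.66 (log2 1.58, SE 0.21, adjusted p = 0.0016). Both genes were as high in miR-24 Tg (19.6 to 30.6 and 81.8 to 95 RPKM) as in cluster Tg, and their WT ranges of 1.92 to 3.23 and 23.9 to 34.3 RPKM lay below every cluster Tg library. Vegfa, a growth factor of blood vessels, was at 10.3, 5.18 and 2.5 against 0.855, 0.828 and 0.943, with a spread of several fold among the cluster Tg libraries. Its log2 difference of 1.77 was called over 16 libraries (adjusted p = 0.0295) but not when any one of cluster Tg replicates 1 and 2 or miR-27 Tg replicates 1 and 2 was left out (highest adjusted p 0.15). No miR-27 Tg library reached 1 RPKM of Vegfa. It thus passed the filter only through cluster Tg, which fixed its direction beforehand. With replicate 3 the differences of Ccr9, Il18r1 and Vegfa were 2.73, 1.99 and 1.74, and none of the 3 was called over 6 libraries (adjusted p = 0.289, 0.37 and 0.463).

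Genes lower in cluster Tg in that fit included Ttyh3, a chloride channel family member, at 29.3, 48.1 and 42.2 RPKM against 139, 152 and 79.2 (log2 -1.87, SE 0.17, adjusted p = 0.000387). It was at 80.8 to 89.5 RPKM in WT, 82.1 to 84 in miR-23 Tg and 20.4 to 28.3 in miR-24 Tg, so cluster Tg and miR-24 Tg were the low genotypes. Slpi, a secreted inhibitor of leukocyte proteases, was at 0.0474, 0.353 and 0.491 RPKM against 2.81, 4.16 and 3 (log2 -1.79, adjusted p = 0.00162). It passed the filter of 1 RPKM only through miR-27 Tg, which fixed its lower level in cluster Tg beforehand. Nacc2, a transcriptional repressor, was at 1.75, 1.94 and 3.44 against 6.73, 10.9 and 10.8 (log2 -1.54, adjusted p = 0.00257), and Car2, a carbonic anhydrase, at 1.15, 2.46 and 2.2 against 5.95, 7.22 and 6.66 (log2 -1.40, adjusted p = 0.00165). Rec8, the meiotic cohesin subunit, was at 2.67, 3.24 and 2.06 against 20.6, 6.75 and 15.4 (log2 -1.83, adjusted p = 0.00375), while WT held 2.19 to 2.48, as in cluster Tg. Ckb, the brain type creatine kinase, was at 11.3, 15.7 and 18.5 against 37.3, 42.8 and 129.7, Rundc3a at 2.86, 2.04 and 1.83 against 7.34, 6.17 and 14.8 and the actin-associated Pdlim4 at 40.2, 53.6 and 59.95 against 97.2, 142 and 345. For these last 3 genes miR-27 Tg replicate 3 was the highest library, and the differences were -1.37, -1.26 and -1.20 without it and -1.92, -1.61 and -1.71 with it. With replicate 3 Ttyh3, Slpi, Nacc2, Car2 and Rec8 differed by -1.58, -1.74, -1.64, -1.40 and -1.95, and no gene of this paragraph was called over 6 libraries. Pdlim4 was no longer called without miR-27 Tg replicate 2 (adjusted p = 0.0746), and the other 7 genes of this paragraph stayed called in all 7 refits of the 16 libraries.

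Some of the genes that were lower in cluster Tg than in miR-27 Tg by the largest differences are markers of other cells. The neutrophil gene S100a9 was at 0, 0 and 0.188 RPKM in cluster Tg and 6.34, 18.1 and 281 in miR-27 Tg, and the plasma cell genes Igj and Mzb1 at 0.252, 0.661 and 2.37 against 8.47, 17.5 and 26.9 and 0.409, 0.386 and 1.11 against 2.43, 7.76 and 13.5. All 3 were called lower over 16 libraries (log2 -3.48, -2.79 and -1.77, adjusted p = 0.041, 0.019 and 0.0307), and none of the calls held when miR-27 Tg replicate 2 or cluster Tg replicate 1 was left out (highest adjusted p 0.264, 0.164 and 0.29). Replicate 3 held the highest level of all 3, and with it they differed by -5.01, -3.15 and -2.24. WT libraries held 0 to 0.139 RPKM of S100a9, 0.0696 to 0.165 of Igj and 0 to 0.314 of Mzb1. No cluster Tg library lay below the WT range of any of these genes, and every miR-27 Tg library lay above it. Sums over the marker lists took in members that did not pass the filter. The 9 neutrophil markers, 4 of them measured, summed to 0.103, 0.447 and 0.795 RPKM in cluster Tg. In miR-27 Tg they summed to 13.7, 36.1 and 676. The 15 B cell markers, 13 of them measured, summed to 114, 98.2 and 189 against 182, 475 and 1109, with WT at 22.8 to 35.0. All 13 measured B cell markers were lower in cluster Tg without replicate 3, but none was called in any of the 3 fits. The 8 erythroid markers, 1 of them measured, summed to 4.01, 2.53 and 14.4 RPKM against 3.60, 291 and 526. By their sums, all neutrophil markers stayed below 1 RPKM in every cluster Tg library. The 4 measured ones thus passed the filter only through miR-27 Tg, which fixed their lower level in cluster Tg beforehand. The marker levels move with the genotype and with replicate 3, and their part in the other differences was not tested. In bulk RNA, fewer cells of a type and less RNA per cell cannot be told apart.

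Genes of effector and memory T cells were mostly higher in cluster Tg. Of 31 measured members, 8 were called higher and 0 lower in the 16-library fit, where 5.55% of all rows were called higher and 6.46% lower. Without replicate 3, 25 of the 31 differences were positive. The median log2 difference was 0.43 without and 0.41 with replicate 3, against 0.00 and -0.01 over all rows. Ly6c2, a surface antigen of memory cells, was at 102, 48.8 and 35.6 RPKM against 18.4, 10.8 and 20.7 (log2 1.92, adjusted p = 0.0115, 16 libraries). Gzmk, a granzyme, was at 18.9, 16.3 and 8.12 against 6.18, 3.13 and 5.43 (log2 1.43, adjusted p = 0.0149). WT libraries held 3.4 to 4.59 RPKM of Ly6c2 and 0.2 to 0.3 of Gzmk, below every library of both transgenics. The annexins Anxa1 (16.9, 5.72 and 3.5 against 2.07, 1.58 and 3.15 RPKM) and Anxa2 (84.7, 61 and 61.5 against 31.7, 23.1 and 48.4), which bind membranes in the presence of calcium, differed by a log2 of 1.53 and 1.30 (adjusted p = 0.0461 and 0.00646). Ctla2a, Ahnak, Vim and Prf1 completed the 8. Without miR-27 Tg replicate 2, Ly6c2, Gzmk, Anxa1 and Anxa2 all lost their call, and the highest adjusted p over the 7 refits of the 16 libraries was 0.127, 0.165, 0.227 and 0.0838. With replicate 3 these 4 differed by 1.74, 1.35, 1.35 and 1.03. Of the list, 2 members were called higher without miR-27 Tg replicate 2 and between 5 and 8 without any other 1 of the 5. In addition 1 member was called lower without cluster Tg replicate 3, and 1 after quantile normalization of the 16 libraries. Only Prf1 of the list was called over 5 libraries, and no member over 6.

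In 3 further receptor and marker lists the called members were also higher, beside 5.55% of all rows called higher and 6.46% lower. Lists outside these went either way, with 1 higher and 0 lower of 10 chemokine receptors and 0 and 1 of 8 CD4 T cell markers. Among co-stimulatory and inhibitory receptors, 3 of 19 members were called higher over 16 libraries and 0 lower (median log2 difference 0.25 without and 0.48 with replicate 3). They were Lag3, an inhibitory receptor for MHC class II, at 14.3, 13.7 and 11.4 RPKM against 6.34, 3.56 and 9.31, Cd200r1, an inhibitory receptor for CD200, at 23.5, 20.2 and 21.6 against 14, 10.7 and 8.48, and Cd96, which binds nectin-like ligands, at 128, 106 and 127 against 92, 73.7 and 72.6. None of the 3 was called when miR-27 Tg replicate 2 was left out of that fit (adjusted p = 0.152, 0.092 and 0.0889). Their differences were 1.28, 0.78 and 0.54 without replicate 3 and 1.00, 0.94 and 0.60 with it. Of 15 genes of T follicular helper cells 3 were called higher. They included Il21, a cytokine gene that the Th17 list also holds, at 2.11, 1.84 and 1.96 against 1.09, 0.906 and 0.265 RPKM. Of 7 CD8 T cell markers, 3 were called higher, namely Ctsw, Crtam and Eomes, whose values were 29.7, 22.5 and 25.6, 4.48, 4.44 and 3.51 and 9.13, 8.69 and 4.72 RPKM in cluster Tg and 14.8, 6.45 and 22.2, 1.58, 1.19 and 1.8 and 4.79, 2.91 and 2.67 in miR-27 Tg. Without miR-27 Tg replicate 2 the calls of Il21, Ctsw, Crtam and Eomes were lost (highest adjusted p over the refits 0.0788, 0.0625, 0.0669 and 0.348), so that no member of these 3 lists was called there. The 4 genes differed by 0.57, 1.30, 1.11 and 0.79 without and 0.79, 0.94, 1.03 and 0.92 with replicate 3. The median of the CD8 markers moved from 0.73 to 0.19 when replicate 3 was included, and 2 of the 7 differences were negative without it. WT libraries held 50 to 64.2 RPKM of Ctsw, 3.11 to 5.01 of Crtam and 2.23 to 2.99 of Eomes. Ctsw in WT thus lay above both genotypes, Crtam in WT overlapped cluster Tg, and Eomes in WT overlapped miR-27 Tg. Cd8a itself overlapped between the groups, at 11.2, 6.99 and 3.29 against 8.99, 3.76 and 4.99 RPKM, and summed CD8 markers lay between 83.8 and 145.5 RPKM in cluster Tg and between 56.2 and 179 in miR-27 Tg. WT libraries held 0.211 to 0.53 RPKM of Cd8a, below every library of both genotypes.

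Of 37 genes of the type I interferon response, 9 were called lower in cluster Tg and 0 higher over 16 libraries, beside 6.46% of all rows called lower and 5.55% higher, and 28 were not called. Without replicate 3, 34 differences were negative, and the median was -0.35 without replicate 3 and -0.13 with it. Oas2, a sensor of double-stranded RNA, was at 62.4, 51.2 and 45.9 RPKM in cluster Tg and 119.6, 116 and 61.3 in miR-27 Tg (log2 -1.14, SE 0.18, adjusted p = 0.00305). Its relative Oas3 was at 23.7, 23.4 and 19.5 against 47, 40.8 and 12.2 (log2 -0.95, adjusted p = 0.00388), and Parp14, an ADP-ribosyltransferase, at 50.6, 45.5 and 45.1 against 73.4, 74.9 and 24.1 (log2 -0.65, adjusted p = 0.00235). In miR-27 Tg replicate 3 Oas3 and Parp14 were below all cluster Tg libraries, and with it the differences shrank to -0.37 and -0.12. Dhx58, a helicase of the RIG-I family, did not overlap (25.3, 22.4 and 20.8 against 34.2, 30.8 and 33.7 RPKM, log2 -0.49, adjusted p = 0.0164), nor did the nucleic acid sensor Zbp1 (145, 144 and 142 against 187, 193 and 191, adjusted p = 0.0251). With replicate 3 Oas2, Dhx58 and Zbp1 differed by -0.83, -0.51 and -0.41. The summed level of the list was 2139 to 2469 RPKM in cluster Tg, 2688 to 2966 in miR-27 Tg and 1428 to 1658 in WT, so both transgenics lay above WT. No member was called over 5 or 6 libraries. The count over 16 fell to 3 without miR-27 Tg replicate 1, to 4 without replicate 2 and to 6 after quantile normalization. Oas2, Oas3 and Parp14 stayed called in all 7 refits, while Dhx58 and Zbp1 were lost without either of these replicates (highest adjusted p 0.126 and 0.154), and Zbp1 also without cluster Tg replicate 1 or 3 and after quantile normalization (0.0668).

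Genes of the naive state were split. Of 24 members, 3 were called higher and 3 lower over 16 libraries, beside 5.55% and 6.46% of all rows, and the median difference was 0.05 without and -0.05 with replicate 3. Dapl1 was at 275, 295 and 395 RPKM against 121, 197 and 262 (log2 1.03, adjusted p = 0.00842). Ccr9, described above, was another of the higher members. Igfbp4, an insulin-like growth factor binding protein that marks naive CD4 T cells, was at 231, 315 and 271 against 466, 726 and 1024 RPKM (log2 -1.10, adjusted p = 0.0274). Tcf7, the transcription factor TCF-1 that maintains naive and memory T cells, was at 753, 811 and 717 against 1048, 1114 and 558. Without replicate 3 Tcf7 differed by -0.51 (adjusted p = 0.0189), but replicate 3 lay below the cluster Tg libraries. The call of Tcf7 was lost without miR-27 Tg replicate 1 or 2, that of Dapl1 without replicate 1 and that of Igfbp4 without replicate 2 or cluster Tg replicate 1 or 3, with highest adjusted p over the refits of 0.145, 0.0975 and 0.24. With replicate 3 the differences of Tcf7, Dapl1 and Igfbp4 were -0.19, 0.78 and -1.38. Ccr7 did not differ beyond its spread, at 179, 212 and 234 against 186, 213 and 428 RPKM (log2 0.06, adjusted p = 0.907).

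In the T cell receptor complex and its proximal signalling, 7 of 37 members were called lower and 1 higher over 16 libraries, beside 6.46% and 5.55% of all rows, with a median difference of -0.06 without and 0.02 with replicate 3. Lck, the kinase that phosphorylates the receptor, was at 455, 499 and 512 RPKM in cluster Tg and 754, 675 and 1284 in miR-27 Tg (log2 -0.55, adjusted p = 0.00339). Lat, the scaffold downstream of it, was at 639, 737 and 701 against 984, 910.3 and 2383 (log2 -0.45, adjusted p = 0.0147), and Cd5, a negative regulator of the receptor, at 237, 267 and 269 against 357, 336 and 432 (log2 -0.43, adjusted p = 0.00706). The 3 genes were lower in every cluster Tg library than in any miR-27 Tg library. With replicate 3 Lck, Lat and Cd5 differed by -0.83, -0.90 and -0.53, and none was called over 6 libraries (adjusted p = 0.584, 0.634 and 0.577). Outside this list Dusp6, a phosphatase of ERK that the receptor induces, moved the other way, at 76.3, 80.8 and 56.9 against 37.3, 30.2 and 36 RPKM (log2 1.05, adjusted p = 0.00706). It was the 1 gene called of 30 immediate early and receptor response genes. Lck stayed called in all 7 refits, whereas Lat was lost without miR-27 Tg replicate 1 or 2 (highest adjusted p 0.119), Cd5 without replicate 1 (0.069) and Dusp6 without replicate 2 (0.0838). Of the 37 members of the receptor complex list, 3 were called lower without miR-27 Tg replicate 1 and 2 without replicate 2. Among cell cycle genes 3 of 34 were called lower and 0 higher, a share near the 6.46% of all rows. They included Ccnd3, cyclin D3, at 91.6, 102 and 92.6 against 151, 162 and 229 (log2 -0.71, adjusted p = 0.00153) and Cdk2 at 28.1, 29.3 and 30.5 against 38.1, 39.7 and 38.1 (log2 -0.40, adjusted p = 0.00323), and both kept their call in the 7 refits. With replicate 3 Dusp6, Ccnd3 and Cdk2 differed by 1.02, -0.90 and -0.39.

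Of 15 heat shock and stress genes 1 was called lower over 16 libraries and 0 higher, a share near the 6.46% of all rows. The median over the 15 was -0.49 without and -0.51 with replicate 3, and 12 differences were negative without it. Hsph1, a chaperone of the HSP110 family, was at 42.7, 42.4 and 39.7 RPKM against 91.8, 84.7 and 32.4. It was called over 5 libraries (log2 -1.07, adjusted p = 0.0194) but not over 16 (adjusted p = 0.0886), and replicate 3 lay below the cluster Tg libraries (log2 -0.59 with it). The mitochondrial chaperone Hspd1 was the single member called over 16 libraries, at 20.2, 22.7 and 26 against 35, 33.5 and 30.8 (log2 -0.56, adjusted p = 0.0458). That call was lost without any one of miR-27 Tg replicates 1 and 2 and cluster Tg replicates 1 and 2 (highest adjusted p 0.197), and the difference with replicate 3 was -0.51. This list also covers genes that respond to cell handling, and the part of handling was not tested. Of 81 ribosomal protein genes, 67 differences were negative without miR-27 Tg replicate 3 with a median of -0.18. With that library the median was -0.73. Over 16 libraries 0 were called higher and 1 lower, and without cluster Tg replicate 3 the calls were 1 and 10. The 77 respiratory chain subunits went from a median of -0.02 to -0.62 when miR-27 Tg replicate 3 was included. Over 16 libraries 2 were called each way, and without cluster Tg replicate 3 the calls were 0 higher and 6 lower.

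Of the regulators of the helper lineages, Tbx21, Gata3, Foxp3 and Bcl6 were not called over 6, 5 or 16 libraries. Tbx21, which encodes T-bet of Th1 cells, was at 4.76, 3.48 and 2.06 RPKM against 3.88, 1.49 and 2.07 (log2 0.30, SE 0.30, adjusted p = 0.563). Gata3 of Th2 cells was at 38.4, 34.9 and 24.6 against 41.7, 28.8 and 49.6 (adjusted p = 0.821). Foxp3 of regulatory T cells was at 5.01, 4.81 and 4.51 against 6.14, 6.41 and 5.19, and Bcl6 of follicular helper cells at 18.6, 16.3 and 13.7 against 13.4, 12.1 and 10.8. The Foxp3 values of cluster Tg were all below and the Bcl6 values all above those of miR-27 Tg, but neither was called (adjusted p = 0.552 and 0.262). Cd44, a surface marker of activated and memory cells, overlapped at 24.7, 20.7 and 19.4 against 21.6, 13.4 and 13.9 RPKM. Over 16 libraries the Th1, Th2 and Th17 lists held 1, 0 and 1 genes called higher and 1, 1 and 0 called lower. These were of 12, 8 and 8 measured, beside 5.55% of all rows called higher and 6.46% lower.

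**Figure D3:**
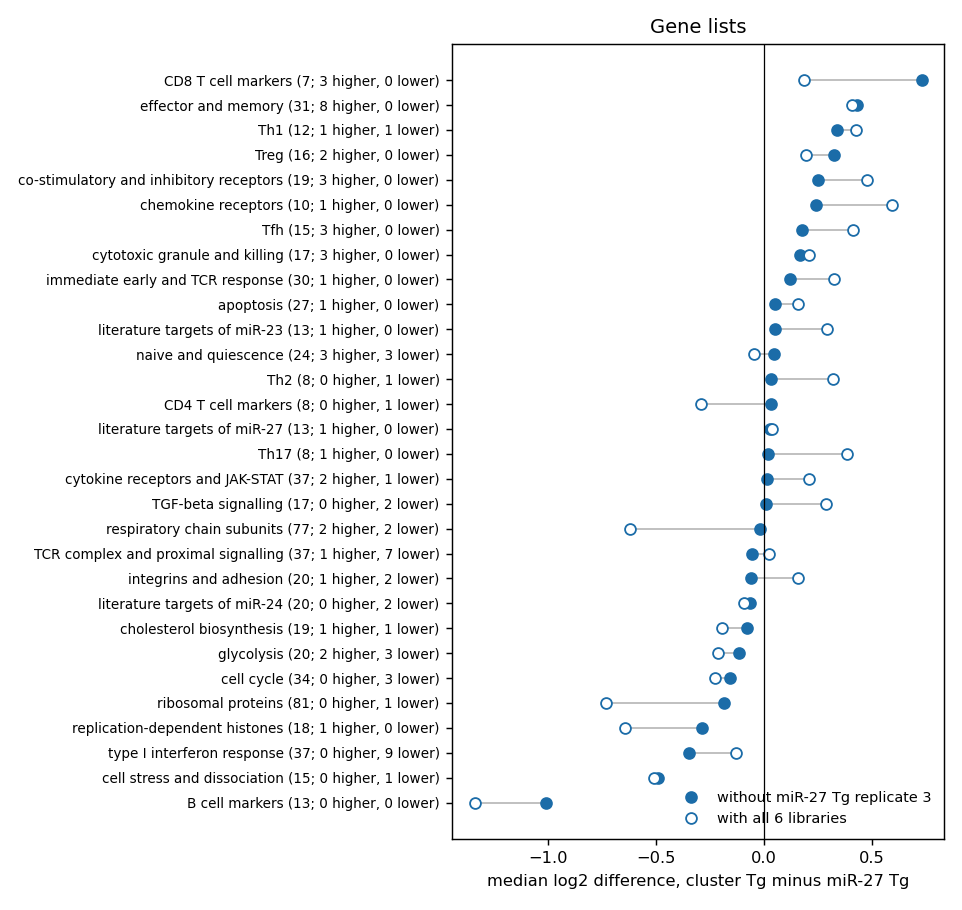
Median log2 difference, cluster Tg minus miR-27 Tg (horizontal axis), of each gene list with 7 or more measured members, without miR-27 Tg replicate 3 (filled circles) and with all 6 libraries (open circles). Labels give the number of measured members and of those called over 16 libraries. The effector and memory list and the stress list hardly move with replicate 3, while the respiratory chain, ribosomal protein and CD8 marker lists move most.

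Sites for the 3 microRNAs were sought as 7-base matches to the seed (AATGTGA for miR-23, ACTGTGA for miR-27, CTGAGCC for miR-24), or 8 bases with an A after them, on the transcript strand only of the 3′ UTR. GENCODE vM21 on GRCm38 gave a 3′ UTR for 9565 of the 10622 rows (90.05%), matched by symbol. An 8-base miR-23 site was in 672 of these genes (7.03%), a miR-24 site in 833 (8.71%) and a miR-27 site in 584 (6.11%). Sites of genes described above are shown to connect the seeds to the values, 8 chosen in genes lower in cluster Tg with a miR-23 or miR-24 site or higher with a miR-27 site, and 3 in genes with the opposite direction, 5′ to 3′ on the transcript, with the match in capitals. Matches of 8 bases end in the added A, and the coordinates cover the 7 bases that pair with the seed.
Myo6, miR-23 site: tactaataattgaaAATGTGAAtga
Nacc2, miR-23 site: cttcaataatattaAATGTGAAtgg
Car2, miR-23 site: gtgcttactaacaaAATGTGAAaag
Ttyh3, miR-24 site: actcctggctgaccCTGAGCCAgca
Tsta3, miR-24 site: cagtatccagccacCTGAGCCAtat
Cyp4f16, miR-24 site: aagtctgaagcaggCTGAGCCAgac
Ecm1, miR-24 site: gtcaccCTGAGCCtcag
Abca1, miR-27 site: tggaaaacttactaACTGTGAAtat
Fas, miR-23 site: tgaaatttgtattaAATGTGAAgtg
Crtam, miR-24 site: agtggagaaaagccCTGAGCCAgag
Pdlim4, miR-27 site: agatgaacggctgtACTGTGAgaat
In GRCm38 the Myo6 site is at chr9:80309275-80309281 (plus strand), the Nacc2 site at chr2:26057577-26057583 (minus) and the Car2 site at chr3:14900233-14900239 (plus). The miR-24 sites are at chr5:140622412-140622418 in Ttyh3 (minus), chr15:75924840-75924846 in Tsta3 (minus), chr17:32551547-32551553 in Cyp4f16 (plus) and chr3:95734227-95734233 in Ecm1 (minus), and the Abca1 site is at chr4:53031478-53031484 (minus). The last 3 are at chr19:34327582-34327588 in Fas (plus), chr9:40970360-40970366 in Crtam (minus) and chr11:54055120-54055126 in Pdlim4 (minus). All lie in 3′ UTRs. Fas and Crtam, which hold a miR-23 and a miR-24 site, were called higher in cluster Tg, and Pdlim4, with a miR-27 site, was called lower. Matches were likewise found for miR-23 in Eomes and Ndrg1, both called higher, and for miR-27 in Cd5 and Hspd1, both called lower, and Crtam holds matches to miR-27 as well. The genotypes with a single added microRNA were not below WT for every gene with its site. Car2 was at 3.75 to 3.93 RPKM in miR-23 Tg and 2.22 to 3.06 in WT. Cyp4f16 was at 2.75 to 4.7 RPKM in miR-24 Tg and 3.01 to 4.01 in WT, both below every cluster Tg library. A match is a description of the sequence, and binding was not measured.

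Genes with miR-23 or miR-24 sites were called lower in cluster Tg more often than higher. Of the 672 genes with an 8-base miR-23 site, 12.05% were called lower and 3.57% higher over 16 libraries, and of the 833 with a miR-24 site 9.60% and 3.24%. Among all 9565 matched genes these shares were 6.75% and 5.68%, and among the 5686 with none of the 3 sites 5.66% and 6.12%. Genes with an 8-base site of miR-27, the microRNA that both genotypes over-express, had shares of 3.42% lower and 5.99% higher. These shares depend on single libraries. Without miR-27 Tg replicate 2 the genes called lower and higher went from 81 and 24 to 21 and 4 for miR-23 sites, from 80 and 27 to 19 and 5 for miR-24 sites, from 20 and 35 to 4 and 7 for miR-27 sites and from 322 and 348 to 73 and 78 for genes with no site. Without replicate 1 they were 32 and 12, 33 and 9, 11 and 12, and 89 and 105. With 2 or more miR-24 matches of 7 bases, 12.66% of 387 genes were called lower and 2.58% higher. For miR-23 these shares were 8.33% and 4.71% of 276 genes, and for miR-27 3.46% and 4.6% of 260. With any 7-base match, 10.44% were called lower for miR-24, 8.85% for miR-23 and 6.05% for miR-27. Median log2 differences without replicate 3 were small, at -0.05 for miR-23, -0.06 for miR-24 and 0.05 for miR-27 sites against 0.00 with none. They kept these signs when any 1 of the 5 libraries was left out and under both rescalings of the 16 libraries. With replicate 3 the medians became 0.10, 0.01, 0.20 and -0.07, so the sign for miR-23 and miR-24 sites turned. In miR-23 Tg minus WT, genes with an 8-base miR-23 site had a median of 0.027, above the -0.001 of genes with none. In miR-24 Tg minus WT, genes with an 8-base miR-24 site had a median of -0.044, below the 0.006 of genes with none. Genes with sites had longer 3′ UTRs, with medians of 2638, 2522 and 2622 bases against 717 with none, and the part of length in these shares was not tested.

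**Figure D4:**
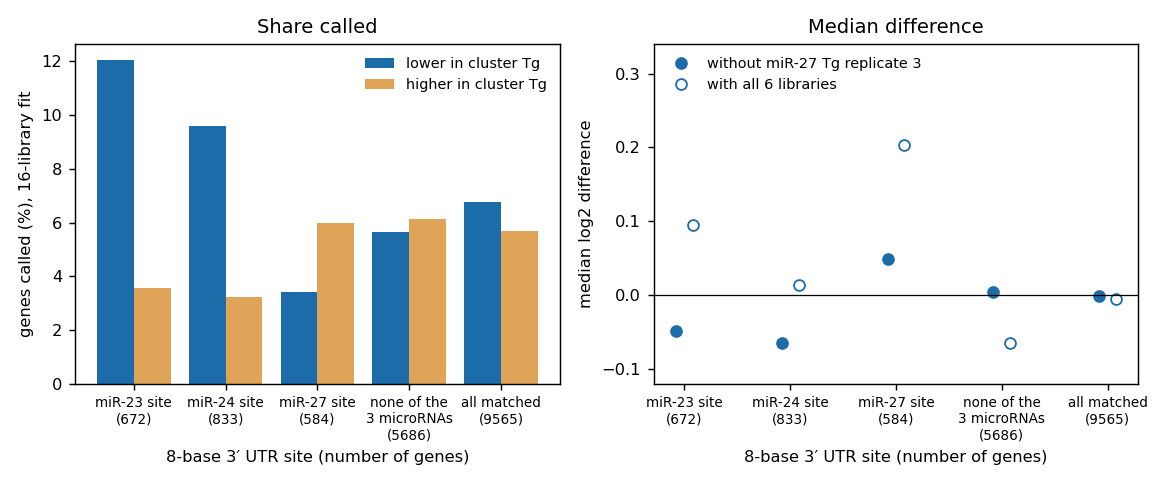
Left, percentage of genes called lower (blue) or higher (orange) in cluster Tg over 16 libraries, by the 8-base 3′ UTR site they hold, with the number of genes in brackets. Right, median log2 difference of the same genes without miR-27 Tg replicate 3 (filled) and with all 6 libraries (open). Genes with miR-23 or miR-24 sites are called lower more often than higher, and their medians lie below 0 only without replicate 3.

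Of genes known from the literature as targets, 1 or 2 per list were called, beside 5.55% of all rows called higher and 6.46% lower. Among 20 measured targets of miR-24, 2 were called lower over 16 libraries, 0 higher, and 15 differences were negative without replicate 3. H2afx, which encodes the DNA damage histone H2AX, was at 8.25, 15.4 and 11.8 RPKM against 23.6, 25.2 and 59.9 (log2 -1.03, adjusted p = 0.00712), with WT at 21.6 to 25.1 and miR-24 Tg at 8.78 to 12.4. Without miR-27 Tg replicate 2 its adjusted p was 0.0687, and that of Acvr1b 0.052. Acvr1b, an activin receptor, was at 15.4, 18.2 and 19.8 against 26.6, 27.2 and 4. Its difference was -0.58 without replicate 3 (adjusted p = 0.00526) and 0.25 with it, and that library held far less than any other. Of 13 miR-23 targets Fas, the death receptor, was the single call and was higher in cluster Tg, at 27.2, 24.9 and 27.5 against 16.3, 17 and 35.7 RPKM (log2 0.64, adjusted p = 0.00162), while replicate 3 lay above all. Of 13 miR-27 targets only Abca1, a cholesterol exporter, was called, at 8.01, 9.71 and 9.36 against 4.94, 4.08 and 1.63 RPKM (log2 0.86, adjusted p = 0.0225). WT libraries held 5.74 to 11.2 RPKM of Abca1, and the call was lost without miR-27 Tg replicate 1 or 2 or cluster Tg replicate 2 or 3. With replicate 3 the differences of H2afx, Fas and Abca1 were -1.45, 0.29 and 1.22, and none was called over 6 libraries.

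The genotypes outside the contrast were set beside it, since miR-24 Tg minus WT and miR-23 Tg minus WT share no library with it. Of the 590 rows called higher over 16 libraries, 85.08% were also higher in miR-24 Tg than in WT, and of the 686 called lower 86.15% were also lower, against 65.37% same signs over all rows. For miR-23 Tg minus WT these shares were 58.64%, 62.54% and 55.31%. The median miR-24 Tg minus WT difference was 0.20 for the rows called higher and -0.25 for those called lower, where the contrast itself had medians of 0.44 and -0.43. The corresponding medians for miR-23 Tg minus WT were 0.04 and -0.05. WT lay nearer to miR-27 Tg than to cluster Tg for 54.07% of the rows called higher and 61.08% of those called lower, against 51.9% of all rows. Spread estimates of the 16-library fit include the WT, miR-24 Tg and miR-23 Tg libraries, which bears on which rows were called but not on the sign of their difference.

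**Figure D5:**
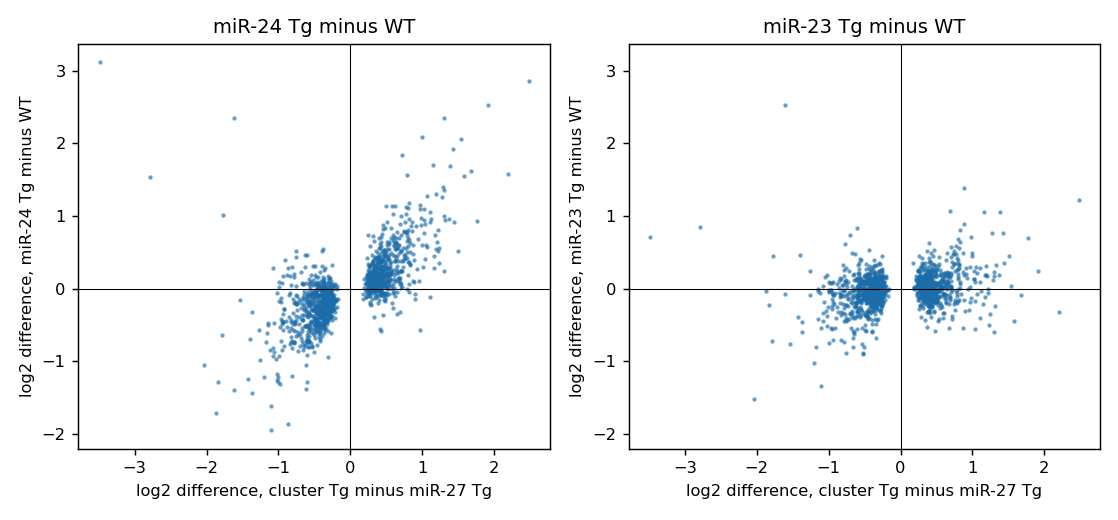
Log2 difference of cluster Tg minus miR-27 Tg (horizontal axis) against miR-24 Tg minus WT (left) and miR-23 Tg minus WT (right, vertical axes) for 1268 rows called over 16 libraries, microRNA and snoRNA rows left out. Points gather at the lower left and upper right of the left panel and lie closer to the horizontal line on the right.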

How the data were processed

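A single table of RPKM was deposited by the authors, with 18 libraries and 23953 gene rows. The tools STAR 2.2.0c and HOMER and the mouse build mm9 are listed per the submitters' processing notes. Per the labels' protocols total RNA with small RNAs was extracted (miRNeasy) and sequenced on an Illumina HiSeq from TruSeq libraries. Which gene models and strand were used, and how shared reads were counted, is not given in any source used here, so paralogs and overlapping genes are uncertain. Of gene symbols, 27 were turned into dates and are not named, and 2 repeated rows were dropped. Values of log2(RPKM + 1) were compared with limma 3.58.1 in R 4.3.3 (moderated two-sided test with the prior variance following mean level, Benjamini-Hochberg over 10622 rows, called under 0.05). Fold changes on this scale understate those of low genes. Absolute depth is unknown; relative depth came from rows under 0.1 RPKM, and precision is limited by the number of libraries. On simulated data for this contrast of 10622 genes, with 100 genes moved by a log2 of 1 and 100 by 2, the 6-library fit called 25% and 57% of them, the 5-library fit 76% and 88%, and the 16-library fit 87% and 98%.

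Genes were named by rule: the hairpins, up to 10 each way called over 6 libraries, 12 each way called over 5 without overlap, up to 4 per list called in either fit, and lineage genes. Rules for the 16-library fit (15 each way without overlap, up to 4 per list) were added after values were seen, and not every gene they pick is printed. Members and lists were chosen with earlier results of these data known. Labels give no batch. Alternatives covered libraries, replicate block, scaling, pseudocount, filter, weights, the variance trend and short RNA rows. The headers of 2 miR-23 Tg columns are identical, so these have no replicate number here. Values of a few genes are not reported here.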

Additional observations from a re-analysis of the deposited data

How the results depend on the processing

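Over 6 libraries the number of rows called was 5, and it was also 5 after quantile normalization, median-ratio scaling, a stricter filter or without a variance trend, 7 with a pseudocount of 0.1 and 4 without a filter. Leaving out 1 library gave between 4 and 26 calls over 6 libraries and between 292 and 1077 over 16, where the full fit gave 1276. With 18 libraries in the fit 417 rows were called, with library weights 1048 (weight of miR-27 Tg replicate 3 0.0311), and over 16 libraries 1215 after quantile normalization and 1272 after median-ratio scaling. Without miR-27 Tg replicate 3 the count was 26 as deposited, 22 after quantile normalization, 24 after median-ratio scaling and 30 without a variance trend. Leaving out microRNA and snoRNA rows gave 0 over 6 libraries and 376 over 5; this setting, the variance trend and the refits of the 16 libraries were chosen after seeing the data. The cause of these changes was not tested. A replicate block in the 6-library fit gave 2 calls; the same-number correlations of deviations were 0.0947, 0.0333 and 0.154, so the numbers were not taken to pair the libraries.

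Differences that changed sign against the 6-library value were as follows, on the log2 scale. Acvr1b was at -0.58 over 5 or 16 libraries and in both 5-library fits on other rows or priors, -0.58 and -0.57 after quantile normalization and median-ratio scaling over 5, -0.60 and -0.57 over 16, and -0.56 with weights. Ccr7 was at 0.0591 over 5 or 16 libraries and in both 5-library fits on other rows or priors, 0.0172 after quantile normalization, 0.11 and 0.062 after the 2 scalings over 5, 0.12 and 0.0668 over 16, and 0.055 with weights. Quantile normalization over 6 libraries gave 0.38 for Mir27a and 0.12 for Tcf7. Leaving out 1 library gave -0.70 to 0.15 for Parp14, -0.65 to 0.67 for Acvr1b, -0.19 to 0.79 for Tbx21, -0.49 to 0.15 for Gata3, -0.54 to 0.16 for Ccr7, -0.01 to 0.64 for Cd44, -0.42 to 0.65 for Cd8a and -0.67 to 0.00021 for Top1. Of 72 named rows called over 16 libraries, 34 stayed called in all 7 refits and 38 were lost in 1 or more.

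Depth limits the rows worth a few reads, and the small number of libraries per genotype limits every other value. The median standard error was 0.25 on the log2 scale with miR-27 Tg replicate 3 and 0.11 without it.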

Other observations

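Among metabolic and signalling lists, calls over 16 libraries are given beside the 5.55% of all rows called higher and 6.46% lower. Of 20 glycolysis genes, 2 were called higher and 3 lower, with a median log2 difference of -0.12 without miR-27 Tg replicate 3 and -0.21 with it, and without miR-27 Tg replicate 2 the calls were 0 and 1. Of 19 genes of cholesterol biosynthesis 1 was called in each direction, and of 17 genes of TGF-beta signalling 0 were called higher and 2 lower, 1 of them Acvr1b. Cytotoxic granule genes held 3 calls of 17, all higher, namely Prf1, Gzmk and Ctsw (median 0.17 without and 0.21 with replicate 3). Among regulatory T cell genes 2 of 16 were called higher, Capg and Nt5e, the latter encoding the ectonucleotidase CD73, at 42.6, 31.2 and 35.9 RPKM in cluster Tg and 22.1, 14.7 and 8.62 in miR-27 Tg (log2 0.97 without and 1.30 with replicate 3, adjusted p = 0.0151, and 0.168 without miR-27 Tg replicate 2).

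Of 77 small nucleolar RNA rows, 58 were higher in cluster Tg without replicate 3 (median log2 difference 0.39, and 0.33 with it). Over 16 libraries 2 were called higher and 0 lower, beside 5.55% of all rows called higher and 6.46% lower, so calls were no more frequent here. Snord88a was at 679.7, 362 and 80.02 RPKM in cluster Tg and listed at 0 in all miR-27 Tg libraries, equal to 8, 4 and 1 reads, while DKO libraries held 3, 6 and 1 reads. Its call (adjusted p = 0.0478) was lost when any 1 of the 5 libraries was left out (highest adjusted p 0.2). Snord88a also passed the filter only through cluster Tg, which fixed its direction beforehand.

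A few calls over 5 libraries went the other way in replicate 3. Bckdha, a subunit of the branched-chain ketoacid dehydrogenase, was at 26.8, 26.7 and 26.7 RPKM against 16.4, 16.1 and 40.3, Rhebl1, a small GTPase, at 16.1, 13.9 and 12.9 against 5.96, 5.29 and 24, and Top1, DNA topoisomerase I, at 29, 28.8 and 30.4 against 46, 47 and 18.7. These 3 were named after their values were seen. Their log2 differences were 0.69, 1.21 and -0.64 without replicate 3 and 0.27, 0.57 and -0.22 with it.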
